A study of Mus musculus with 14 samples.

Results

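The 50 genes described here are parts of the cell cycle machinery whose RNA is made in different phases of the cycle, followed in microglia sorted from mouse cortex after a focal stroke. They were taken by symbol from the deposited count table, in which all 50 were found among 14084 genes, and all 50 passed the filter on low counts that left 13861 genes for testing. By role, 11 are S-phase genes (Mcm2 to Mcm7, Pcna, Rrm1, Rrm2, Tyms and Cdc6), 8 are other genes of the passage from G1 into S phase (Tk1, Gins2, Cdc45, Cdt1, Ccne1, Ccne2, E2f1 and Uhrf1), 30 act in G2 and mitosis, and Stmn1, which codes for the microtubule regulator stathmin, was given no single phase. The comparison that these groups allow is whether the S-phase and the mitotic genes moved together, at which times, and by how much.

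The mice were C57BL/6 animals of 8 to 10 weeks. In the stroke groups the distal middle cerebral artery was tied off permanently and both common carotid arteries were closed for 7 min, and microglia were taken from the cerebral cortex by fluorescence-activated sorting 1, 3, 7, 21, 60 or 90 days later. Sham animals received a lesion of the skull surface alone, and the time between that lesion and sampling, like the sort markers, is not given in the sources used here. Each of the 7 groups has 2 libraries, 14 in all. Since the labels do not tie the 2 libraries of a group to different animals, every p-value rests on a spread between samples that may be technical. All 6 comparisons with sham share the same 2 sham libraries and are therefore not independent of each other.

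A dividing cell first licenses its DNA for copying: Cdc6 and Cdt1 load the Mcm2 to Mcm7 helicase onto origins, and E2F transcription factors with cyclin E (Ccne1, Ccne2) start the genes needed for synthesis. Cyclin A, cyclin B and Cdk1 then carry the cell into mitosis, where kinetochore proteins, kinesins and the spindle checkpoint separate the chromosomes and the central spindle prepares the cut between the daughter cells. Microglia, the resident macrophages of the brain, divide slowly in the healthy adult brain and are known to proliferate around ischemic lesions.

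Values are CPM, counts relative to the library's total, and are not divided by gene length, so levels are compared between libraries and not between genes. Those of the cell cycle genes were scaled by TMM factors (trimmed mean of M-values). Levels of cell type markers, here and below, are CPM of the total counts without these factors. A gene was called higher or lower at an adjusted p under 0.05 in edgeR's quasi-likelihood test over all 13861 genes. Total counts ran from 15254983 to 28758420 in the 7 libraries numbered replicate 1 and from 100625099 to 191692779 in the 7 numbered replicate 2, so depth and replicate number cannot be told apart. Both sham libraries lay above all later ones in summed neutrophil and erythroid markers, but not in monocyte markers. The summed level of 11 neutrophil markers was 22302 to 33143 CPM in sham against 373 to 7836 CPM in the later libraries, that of 8 erythroid markers 219 to 220.4 CPM against 9.88 to 27.3 CPM, and that of 10 monocyte markers 7223 to 12645 CPM against 1221 to 11211 CPM. Most of the erythroid sum in sham was Alas2, which averaged 199.6 CPM. Some markers of these lists went the other way. The neutrophil markers Ltf, Ngp and Camp averaged 240, 301 and 65.5 CPM in sham against 1254, 1156 and 121.7 CPM at day 90. The monocyte markers Fn1 and Vcan averaged more at day 1 than in sham, and the erythroid markers Epor and Tfrc averaged least in sham. The 12 microglia markers summed to 1563 to 2569 CPM in sham and 2807 to 29285 CPM in the later libraries, with none at 0. Most of the sham sum was Csf1r and Cx3cr1, which averaged 1428 and 274 CPM in sham against 1050 and 139.5 CPM at day 1. Every other marker of that list averaged less in sham than at day 1. Tmem119, Fcrls, Olfml3 and Trem2 averaged 10.2, 7.29, 3.78 and 20.96 CPM in sham against 158, 609, 210 and 693 CPM at day 1. The 6 neuron markers summed to at most 7.94 CPM. These values move with every comparison against sham, and their part in the results was not tested. In bulk RNA of this kind, fewer cells of a type and less RNA per cell cannot be told apart.

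At day 7 after stroke 30 of the 50 genes were called higher than sham and 0 lower, against 7% of all genes tested called higher, 5.63% lower and 12.6% in either direction. Of these 8 were among the 11 S-phase genes, 5 among the 8 other G1/S genes and 16 among the 30 mitotic genes, and the last was Stmn1. The median log2 fold change was 3.35 over the S-phase genes and 5.15 over the mitotic genes, while that of all genes tested was 0.06. At day 3 the counts were 22 higher and 1 lower (background 5.2% higher, 3.07% lower and 8.28% in all), with 5 S-phase, 2 other G1/S and 14 mitotic genes among those that rose. In 47 genes at day 7 and 38 at day 3 both libraries lay above both sham libraries, which held for 32.1% and 28.9% of all genes tested. In 1 gene at each time, Kif23, both lay below, which held for 27.6% and 24.5% of all genes. Without sham replicate 1, sham replicate 2 or day 7 replicate 1 the count at day 7 was 8, 10 or 16, and without sham replicate 1, sham replicate 2 or day 3 replicate 2 the count at day 3 was 0, 4 or 5. Mcm3, Mcm6, Tyms, Cdk1, Ccnb2, Kif2c and Prc1 at day 7 were called under each of the 23 alternatives run for them.

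**Figure D1:**
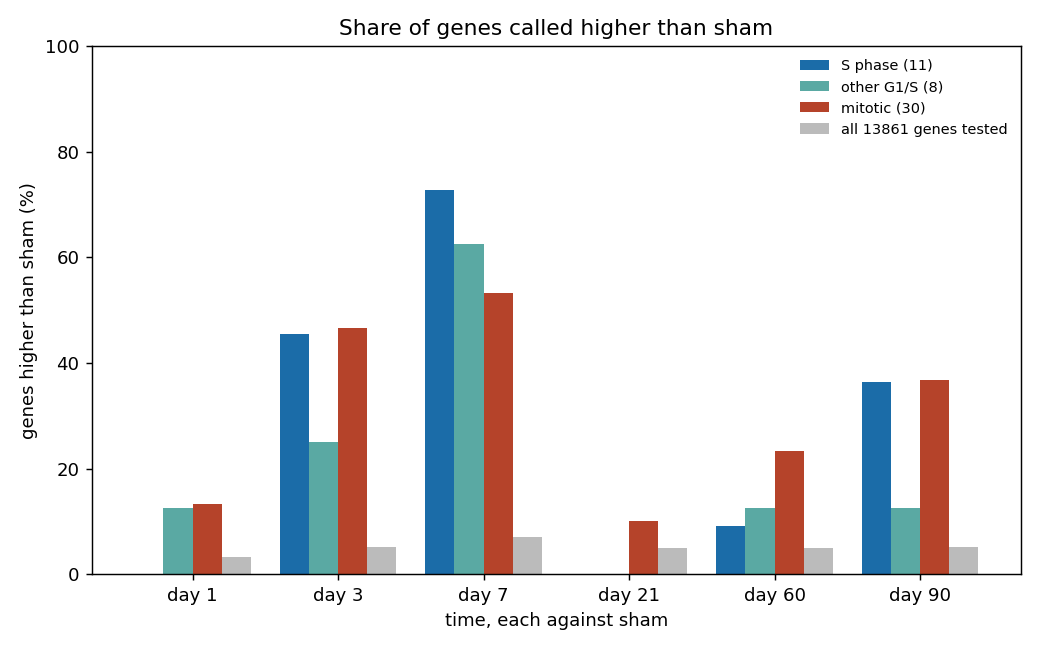
Bars give the percentage of genes called higher than sham (y axis, edgeR adjusted p under 0.05) at each of 6 times (x axis) for 11 S-phase, 8 other G1/S and 30 mitotic genes and for all 13861 genes tested. At day 7 the bars stand at 72.7%, 62.5% and 53.3% for the 3 gene groups beside 7% for all genes.

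At the remaining times fewer of the genes passed the test. At day 90 the counts were 17 higher and 1 lower (background 5.12% higher, 2.73% lower and 7.86% in all), with 4 S-phase, 1 other G1/S and 11 mitotic genes among those that rose. At day 60 they were 10 higher and 1 lower (background 4.96%, 2.89% and 7.85% in all). At day 1 they were 5 and 1 (background 3.18%, 1.37% and 4.55%), and at day 21 they were 3 and 1 (background 5%, 1.44% and 6.44%). The day 21 counts are 6% of the 50 genes higher and 8% in either direction, near the background. The 3 genes called higher at day 21 were Cdk1, Plk1 and Kif2c. The gene called lower at day 1, day 21, day 60 and day 90 was Kif23. Both libraries lay above both sham libraries in 42 genes on day 90, 36 on day 60, 26 on day 1 and 25 on day 21, beside 36.4%, 33.9%, 22.2% and 27.5% of all genes tested. Both lay below both sham libraries in 3, 6, 5 and 4 genes at those times, beside 27.2%, 26.9%, 23% and 24.1% of all genes. When all 7 groups were tested jointly, 19 of the 50 genes were called (background 7.21%), of which 3 were S-phase genes (Mcm2, Mcm3 and Mcm6), 2 other G1/S genes (Ccne1 and Uhrf1) and 14 mitotic genes, and Prc1 had the lowest adjusted p of 0.0101.

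These smaller counts turned on single libraries. In the sham comparisons named below, and those of day 3 and 7 above, the share of all genes called moved the same way. The day 1 counts without a day 7, day 60 or day 90 library lie near that share. Without sham replicate 1 or 2 it fell to between 0.654% and 2.77% or between 0.498% and 3.02% over the 6 times, and without day 21 replicate 1 it rose to 12.7% on day 90 and 15.5% jointly. At day 90 the 18 calls became 0 or 1 without sham replicate 1 or 2, 3 without either day 90 library, 10 without either day 60 library and 28 without day 21 replicate 1. The 11 calls of day 60 became 0 or 3 without sham replicate 1 or 2, 0 without either day 60 library, 6 without either day 7 library and 3 without either day 90 library. At day 1 the 6 calls became 0 without either sham library, 2 or 10 without day 1 replicate 1 or 2, 2 without any of the day 7 or day 60 libraries and 1 without either day 90 library. The 4 calls of day 21 became 0 without either sham library, 10 or 2 without day 21 replicate 1 or 2, and 8 without any of the day 1 or day 3 libraries. Of the 10 without day 21 replicate 1 only 3 were higher than sham, and 17.1% of all genes were called in that fit. Of the 19 genes called jointly 1 was left without either sham library, 4 without either day 7 library or day 60 replicate 1, 3 without day 60 replicate 2 or either day 90 library, and 33 were called without day 21 replicate 1.

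**Figure D2:**
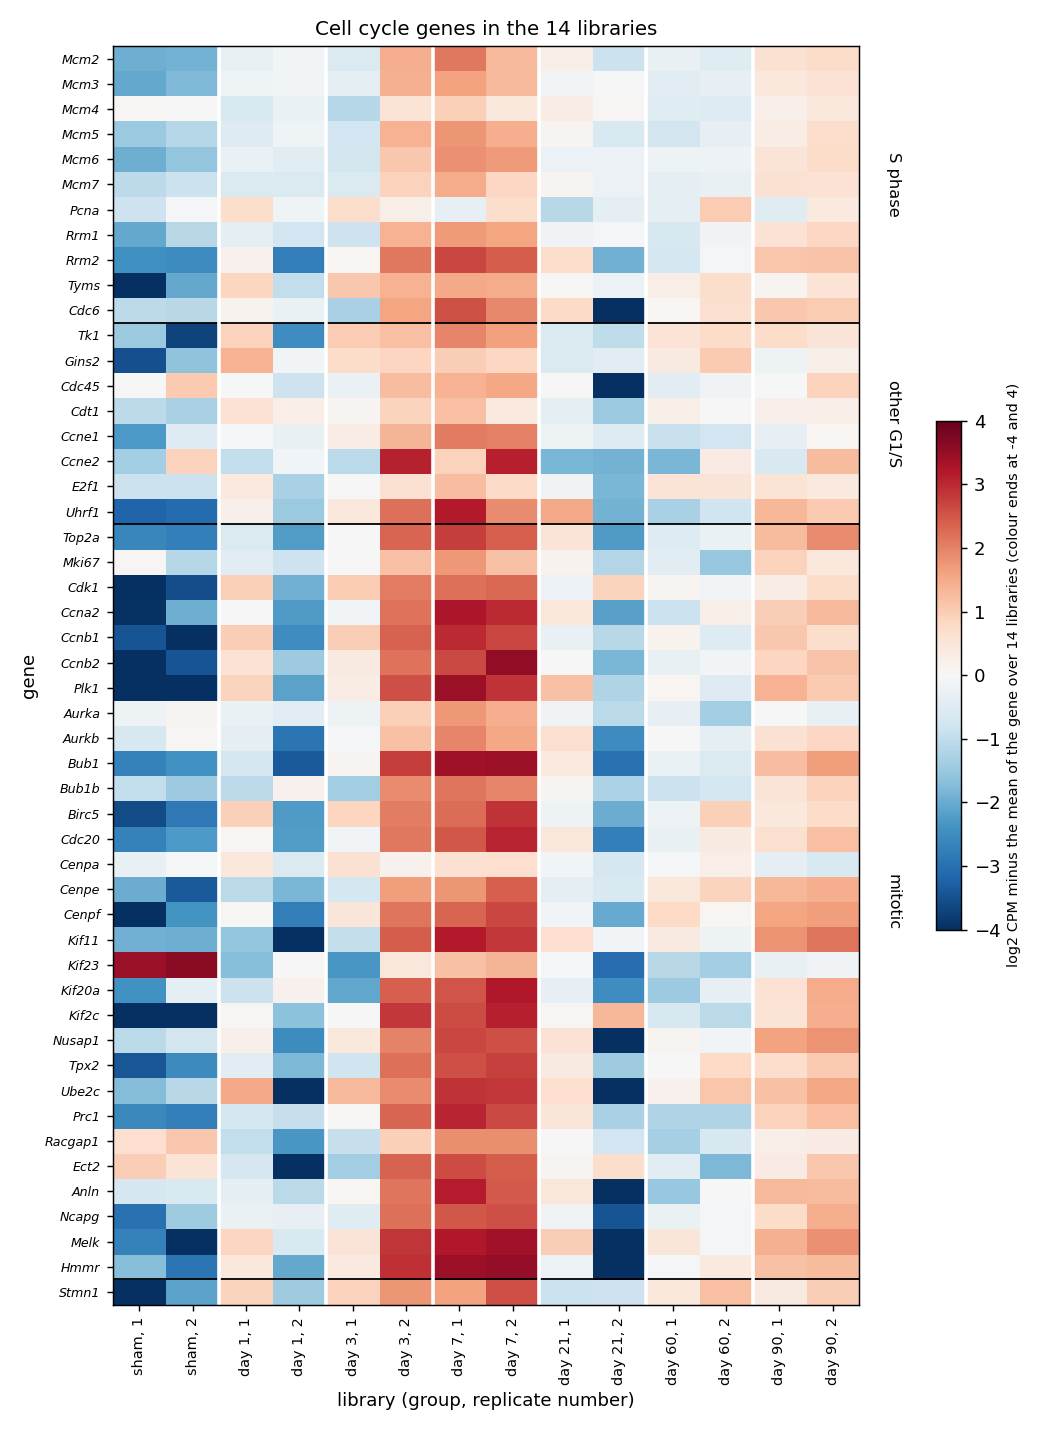
Each row is one of the 50 genes, grouped by phase, and each column a library. Colour gives log2 CPM minus that gene's mean over the 14 libraries, from -4 (blue) to 4 (red). The day 7 libraries and day 3 replicate 2 are red in nearly all rows, and Kif23 is the row in which the 2 sham libraries are darkest red.

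Among the S-phase genes, the 6 subunits of the Mcm2 to Mcm7 helicase split into 5 that rose at day 7 and Mcm4, which was not called at any time. Upstream sequences of 3 of the S-phase genes are shown because they hold short sequences that E2F factors are known to recognise; they are the 160 bases before the RefSeq start of the gene (GRCm38.p6), 5′ to 3′ on the strand of the gene, with the E2F words TTTCCCGC, TTTGGCGC, TTTGCCGC and TTTCGCGC, and CCAAT, in capitals on either strand, where E2F words can overlap each other.
Mcm5 promoter, chr8:75109349-75109508, plus strand: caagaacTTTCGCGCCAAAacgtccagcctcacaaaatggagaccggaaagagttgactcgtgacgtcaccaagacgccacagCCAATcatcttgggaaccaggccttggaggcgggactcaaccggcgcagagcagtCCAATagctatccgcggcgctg
Mcm6 promoter, chr1:128359706-128359865, minus strand: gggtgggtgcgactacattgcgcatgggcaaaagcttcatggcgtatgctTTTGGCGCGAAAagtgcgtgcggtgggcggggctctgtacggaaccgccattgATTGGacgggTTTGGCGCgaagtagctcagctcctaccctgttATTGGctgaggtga
Cdc6 promoter, chr11:98907991-98908150, plus strand: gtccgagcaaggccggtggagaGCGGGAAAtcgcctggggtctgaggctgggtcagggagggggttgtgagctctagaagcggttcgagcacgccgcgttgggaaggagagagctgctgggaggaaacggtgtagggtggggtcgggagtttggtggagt
RefSeq promoters were matched for 42 of the 50 genes. In the 250 bases before the start an E2F word was found in 4 of 10 S-phase genes with a promoter (40%), 1 of 6 other G1/S genes (16.7%) and 1 of 26 mitotic genes (3.85%), beside 2.16% of all 27025 genes with a promoter of that length and 3.62% of the 10622 of them in the count table. A word match is a description of the letters and not evidence of binding.

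Mcm6, whose upstream stretch printed above has 3 E2F words, was at 12.4 and 16.3 CPM in sham. Mcm6 then stood at 40.1 and 35.3 (day 1), 28.9 and 103 (day 3) and 173 and 159 CPM (day 7), followed by 41.2 and 41.1 (day 21), 42.04 and 41.9 (day 60) and 68.9 and 80.6 CPM (day 90). The day 7 pair is highest, the sham pair is lowest, and the 2 libraries of day 3 lie far apart. The difference from sham passed the test at day 3 (log2 fold change 2.203, SE 0.52, adjusted p = 0.0249), day 7 (log2 fold change 3.53, SE 0.55, adjusted p = 0.00382) and day 90 (log2 fold change 2.38, SE 0.52, adjusted p = 0.01999). Mcm2 and Mcm3, 2 further subunits, passed at the same 3 times. Mcm2 was at 4.55 and 4.82 CPM in sham. Mcm2 then stood at 14.6 and 16.5 (day 1), 12.04 and 48.7 (day 3) and 76.1 and 43.6 CPM (day 7), followed by 21.3 and 9.88 (day 21), 14.4 and 12.8 (day 60) and 26.96 and 29.3 CPM (day 90). Mcm3 was at 9.94 and 12.1 CPM in sham. Mcm3 then stood at 36.6 and 37.9 (day 1), 31.2 and 111 (day 3) and 125 and 101 CPM (day 7), followed by 38.5 and 40.5 (day 21), 30.6 and 33.04 (day 60) and 54.96 and 61.99 CPM (day 90). In both genes sham is below all 12 later libraries. Their log2 fold changes at day 7 were 3.67 (adjusted p = 0.00717) and 3.35 (adjusted p = 0.00441).

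Mcm5 and Mcm7 were called at day 7 alone. Mcm5 was at 9.701 and 12.2 CPM in sham. Mcm5 then stood at 19.1 and 24.3 (day 1), 15.8 and 71.9 (day 3) and 92.00 and 74.9 CPM (day 7), followed by 29.2 and 17.7 (day 21), 16.3 and 21.8 (day 60) and 33.3 and 44.4 CPM (day 90), so that every library after stroke was above both sham libraries, and its change at day 7 had a log2 fold change of 2.93 (adjusted p = 0.0142). Mcm7 was at 10.3 and 11.5 CPM in sham and 59.3 and 37.5 CPM at day 7 (log2 fold change 2.15, SE 0.501, adjusted p = 0.0191), and it shares 7.25% of its exon bases with Ap4m1 on the opposite strand, which matters because the strand setting of the counting is not stated. Mcm4 was at 31.2 and 30.01 CPM in sham. Mcm4 then stood at 19.97 and 24.99 (day 1), 13.8 and 44.3 (day 3) and 58.9 and 40.9 CPM (day 7), followed by 37.3 and 30.9 (day 21), 21.7 and 21.3 (day 60) and 34.4 and 41.4 CPM (day 90). Its sham libraries lie within the range of the later ones, and its value at day 7 was 49.9 ± 12.7 CPM (SD, n = 2) against 30.6 ± 0.861 CPM (SD, n = 2) in sham (log2 fold change 0.704, SE 0.497, adjusted p = 0.374).

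Rrm1 and Rrm2, the large and small subunits of ribonucleotide reductase, which makes the building blocks of DNA, both rose at day 7. Rrm2 was at 1.76 and 1.69 CPM in sham. Rrm2 then stood at 10.9 and 1.42 (day 1), 10.3 and 42.3 (day 3) and 62.7 and 52.3 CPM (day 7), followed by 15.9 and 2.52 (day 21), 6.01 and 9.22 (day 60) and 20.9 and 21.5 CPM (day 90). Day 1 replicate 2 and day 21 replicate 2 are near the sham level while their partners are several times higher, and the change passed at day 3 (log2 fold change 3.94, SE 1.06, adjusted p = 0.0408) and day 7 (log2 fold change 5.06, SE 1.11, adjusted p = 0.0154). Rrm1 was at 7.397 and 14.2 CPM in sham. Rrm1 then stood at 23.8 and 17.9 (day 1), 17.04 and 80.1 (day 3) and 99.7 and 91.5 CPM (day 7), followed by 27.7 and 29.3 (day 21), 19.7 and 27.7 (day 60) and 45.4 and 53.8 CPM (day 90), and was called at day 7 alone (log2 fold change 3.14, SE 0.64, adjusted p = 0.0116). Every library after stroke was above both sham libraries in Rrm1. Tyms, thymidylate synthase, was at 0.243 and 1.69 CPM in sham. Tyms then stood at 12.8 and 3.57 (day 1), 14.9 and 18.5 (day 3) and 20.01 and 19.8 CPM (day 7), followed by 7.24 and 5.95 (day 21), 8.53 and 11.5 (day 60) and 7.68 and 10.2 CPM (day 90). It passed at day 3, day 7, day 60 and day 90, with log2 fold changes of 4.04, 4.29, 3.301 and 3.14 and adjusted p of 0.0149, 0.00942, 0.0312 and 0.0361. All 12 libraries after stroke were above both sham libraries in this gene.

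Pcna and Cdc6 did not pass at any time. Pcna, the sliding clamp of the replicating polymerases, was at 12.3 and 20.6 CPM in sham. Pcna then stood at 35.4 and 19.5 (day 1), 35.8 and 25.6 (day 3) and 17.6 and 35.7 CPM (day 7), followed by 10.2 and 16.7 (day 21), 17.1 and 44.3 (day 60) and 15.6 and 28.5 CPM (day 90). Its highest library is day 60 replicate 2, sham overlaps every group but day 3, and its log2 fold change at day 7 was 0.696 (SE 0.60, adjusted p = 0.474). In Pcna 19.1% of the transcript's 50-base words also occur in a processed pseudogene, so reads may be split between copies. The same holds for 16.5% of the words of Mcm7, 14.7% of Uhrf1, 10.3% of Cdc20 and 6.56% of Plk1. Cdc6, the loader of the helicase, was at 0.788 and 0.749 CPM in sham. Cdc6 then stood at 1.82 and 1.37 (day 1), 0.658 and 5.004 (day 3) and 9.79 and 6.26 CPM (day 7), followed by 2.84 and 0 (day 21), 1.72 and 2.59 (day 60) and 3.47 and 3.38 CPM (day 90). Both day 7 libraries lie above all others, but day 21 replicate 2 had no count, which allows up to 0.0257 CPM in that library by counting error alone, and the log2 fold change of 3.38 had an SE of 1.70 (adjusted p = 0.2096).

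Of the 8 other G1/S genes, 5 rose at day 7: Uhrf1, Tk1, Ccne1, Gins2 and Cdt1. Uhrf1, which carries DNA methylation over to the new strand, was at 0.485 and 0.523 CPM in sham. Uhrf1 then stood at 5.33 and 1.62 (day 1), 6.25 and 21.2 (day 3) and 41.6 and 17.3 CPM (day 7), followed by 13.2 and 1.23 (day 21), 1.87 and 2.65 (day 60) and 11.6 and 9.62 CPM (day 90). The 4 libraries of day 7 and day 90, with day 3 replicate 2 and day 21 replicate 1, are high and sham is lowest, with calls at day 3 (log2 fold change 4.76, SE 1.11, adjusted p = 0.0243), day 7 (log2 fold change 5.86, SE 1.17, adjusted p = 0.0102) and day 90 (log2 fold change 4.39, SE 1.097, adjusted p = 0.0338). Ccne1, a cyclin E gene, was at 0.667 and 2.38 CPM in sham. Ccne1 then stood at 3.29 and 2.78 (day 1), 4.14 and 8.78 (day 3) and 14.4 and 13.6 CPM (day 7), followed by 2.92 and 2.39 (day 21), 1.84 and 1.99 (day 60) and 2.698 and 3.58 CPM (day 90). It was called at day 7 (log2 fold change 3.18, SE 0.71, adjusted p = 0.0165), where both libraries are above all other libraries. Ccne2, the other cyclin E gene, was at 0.424 and 2.199 CPM in sham. Ccne2 then stood at 0.567 and 1.06 (day 1), 0.526 and 9.903 (day 3) and 2.18 and 10.03 CPM (day 7), followed by 0.305 and 0.292 (day 21), 0.306 and 1.43 (day 60) and 0.743 and 2.75 CPM (day 90). Its replicate 2 is above replicate 1 in every group but day 21, sham overlaps most groups, and it was not called (adjusted p = 0.302 at day 7), and 17.4% of its exon bases overlap Ints8 on the opposite strand.

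Tk1, the thymidine kinase of S phase, was at 1.82 and 0.368 CPM in sham. Tk1 then stood at 9.701 and 0.899 (day 1), 10.5 and 11.9 (day 3) and 19.8 and 16.01 CPM (day 7), followed by 3.45 and 2.52 (day 21), 7.54 and 8.63 (day 60) and 8.59 and 7.401 CPM (day 90). It was called at day 7 alone (log2 fold change 4.09, SE 1.02, adjusted p = 0.0245). Cdt1, which loads the helicase with Cdc6, was at 9.34 and 7.71 CPM in sham and 44.4 and 25.3 CPM at day 7 (log2 fold change 2.03, SE 0.51, adjusted p = 0.0242). Both day 7 libraries of Tk1 and Cdt1 lay above both sham libraries. E2f1, the transcription factor, was at 9.52 and 9.44 CPM in sham. E2f1 then stood at 22.4 and 6.99 (day 1), 16.8 and 25.9 (day 3) and 40.6 and 29.2 CPM (day 7), followed by 15.5 and 4.84 (day 21), 24.8 and 24.3 (day 60) and 25.1 and 22.6 CPM (day 90). Sham sits below every later library but day 1 replicate 2 and day 21 replicate 2, and the change at day 7 did not pass (log2 fold change 1.88, SE 0.63, adjusted p = 0.0709). Cdc45, which joins the helicase at firing origins, was at 4.97 and 10.2 CPM in sham and 12.9 and 14.5 CPM at day 7 and was not called at any time. Gins2, its partner in that complex, was at 0.606 and 2.31 CPM in sham. Gins2 then stood at 18.9 and 6.64 (day 1), 11.97 and 13.02 (day 3) and 14.2 and 12.6 CPM (day 7), followed by 4.75 and 5.19 (day 21), 9.14 and 14.7 (day 60) and 6.25 and 8.47 CPM (day 90). All 12 later libraries are above sham, and Gins2 was called at day 1, day 3, day 7 and day 60 with log2 fold changes of 3.09, 3.06, 3.16 and 2.99. Since 67.3% of the exon bases of Gins2 lie opposite Gse1, its counts cannot be assigned to either gene with certainty.

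The mitotic genes had the largest changes. Upstream sequences of 5 of them, picked with their levels known, follow as a description. Capitals mark CCAAT and the cell cycle homology words TTTGAA and TTCGAA, on either strand. The stretches are the 160 bases before the RefSeq start (GRCm38.p6), printed 5′ to 3′ on the strand of the gene.
Top2a promoter, chr11:99024190-99024349, minus strand: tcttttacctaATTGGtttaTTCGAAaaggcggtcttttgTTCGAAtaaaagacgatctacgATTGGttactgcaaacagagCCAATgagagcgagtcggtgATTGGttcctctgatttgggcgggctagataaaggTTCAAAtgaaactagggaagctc
Mki67 promoter, chr7:135716380-135716539, minus strand: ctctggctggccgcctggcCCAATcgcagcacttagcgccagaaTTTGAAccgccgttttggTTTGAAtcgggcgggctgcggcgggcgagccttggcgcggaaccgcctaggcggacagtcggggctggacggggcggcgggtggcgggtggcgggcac
Kif11 promoter, chr19:37376222-37376381, plus strand: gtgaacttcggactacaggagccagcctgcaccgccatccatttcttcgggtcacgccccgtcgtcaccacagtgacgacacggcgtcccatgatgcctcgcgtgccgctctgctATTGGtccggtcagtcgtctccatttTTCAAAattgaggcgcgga
Kif23 promoter, chr9:61946800-61946959, minus strand: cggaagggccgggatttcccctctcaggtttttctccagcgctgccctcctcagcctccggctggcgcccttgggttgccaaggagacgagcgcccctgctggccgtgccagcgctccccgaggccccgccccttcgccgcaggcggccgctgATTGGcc
Racgap1 promoter, chr15:99651657-99651816, minus strand: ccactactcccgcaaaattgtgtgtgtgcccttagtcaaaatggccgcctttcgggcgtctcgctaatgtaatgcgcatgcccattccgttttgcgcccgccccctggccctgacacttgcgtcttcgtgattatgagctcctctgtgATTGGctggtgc
A homology word was found in the 250 bases before the start of 12 of 26 mitotic genes with a promoter (46.2%) and 2 of 10 S-phase genes (20%), beside 19.6% of all genes and 14.8% of those in the count table. CCAAT was found in 21 of the 26 mitotic genes (80.8%) and 8 of the 10 S-phase genes (80%), beside 37.5% and 40% of the same 2 sets. Top2a, Mki67 and Kif11 hold both, and the windows of Kif23 and Racgap1 hold CCAAT and no homology word, which says only that these letters are not in these windows. Of the mitotic genes called higher at day 7, Plk1, Ccnb1, Bub1, Birc5, Cenpe and Cenpf hold no homology word either. Top2a, Cdk1, Ccnb2, Bub1b, Cdc20, Kif2c, Prc1 and Ncapg hold it, and Ccna2 and Tpx2 had no promoter matched. A link between these words and the levels was not tested.

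Cdk1, the kinase that drives entry into mitosis, was called at all 6 times. It was at 0.243 and 0.618 CPM in sham. Cdk1 then stood at 14.5 and 1.96 (day 1), 15.2 and 30.8 (day 3) and 34.5 and 36.5 CPM (day 7), followed by 6.28 and 13.7 (day 21), 8.11 and 6.91 (day 60) and 9.22 and 12.5 CPM (day 90). All 12 libraries after stroke are above both sham libraries, the day 7 pair and day 3 replicate 2 are highest, and the log2 fold change was 6.27 (SE 0.98, adjusted p = 0.00388) at day 7 against 4.03 (adjusted p = 0.0222) at day 60. The cyclins that act with it passed at fewer times. Ccnb2, a cyclin B gene, was at 0.424 and 0.701 CPM in sham. Ccnb2 then stood at 11.9 and 2.86 (day 1), 10.3 and 36.1 (day 3) and 49.5 and 92.5 CPM (day 7), followed by 7.98 and 2.199 (day 21), 6.39 and 7.36 (day 60) and 14.4 and 17.4 CPM (day 90). It was called at every time but day 21, with the largest change at day 7 (log2 fold change 6.93, SE 1.02, adjusted p = 0.00305). Ccnb1, the other cyclin B gene, was at 0.121 and 0.0713 CPM in sham. Ccnb1 then stood at 3.12 and 0.263 (day 1), 3.16 and 8.14 (day 3) and 12.5 and 10.2 CPM (day 7), followed by 1.26 and 0.722 (day 21), 1.72 and 1.08 (day 60) and 3.36 and 2.56 CPM (day 90). Sham is lowest in both cyclin B genes, and Ccnb1 passed at day 3 (log2 fold change 5.97, SE 1.22, adjusted p = 0.01404), day 7 (log2 fold change 6.98, SE 1.26, adjusted p = 0.00722) and day 90 (log2 fold change 5.03, SE 1.18, adjusted p = 0.0261), while 18.9% of its transcript's 50-base words also occur in a pseudogene. Ccna2, the cyclin A gene of S and G2 phase, was at 0.424 and 1.78 CPM in sham. Ccna2 then stood at 6.92 and 1.43 (day 1), 6.38 and 31.3 (day 3) and 65.9 and 54.6 CPM (day 7), followed by 9.46 and 1.53 (day 21), 3.83 and 8.18 (day 60) and 13.6 and 17.04 CPM (day 90). It passed at day 3 (log2 fold change 4.04, SE 1.12, adjusted p = 0.0465) and day 7 (log2 fold change 5.71, SE 1.21, adjusted p = 0.0133). Day 3 replicate 1 of Ccna2 is well below its partner, and 12.5% of the exon bases of Ccna2 overlap Exosc9 on the opposite strand.

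Plk1, the polo-like kinase that matures the spindle poles, was called at all 6 times. It was at 0.0606 and 0.119 CPM in sham. Plk1 then stood at 6.47 and 0.781 (day 1), 4.34 and 21.1 (day 3) and 37.9 and 26.3 CPM (day 7), followed by 7.85 and 1.501 (day 21), 3.71 and 2.46 (day 60) and 9.25 and 7.296 CPM (day 90). Its sham libraries hold 1 and 10 counts, so its fold changes rest on few counts on the sham side, and that at day 7 was the largest among the called genes (log2 fold change 8.304, SE 1.39, adjusted p = 0.00508). Aurkb, the kinase of the chromosomal passenger complex, was at 4.73 and 7.72 CPM in sham. Aurkb then stood at 5.84 and 0.954 (day 1), 7.17 and 16.7 (day 3) and 29.1 and 21.97 CPM (day 7), followed by 11.7 and 1.28 (day 21), 7.46 and 5.85 (day 60) and 11.4 and 13.3 CPM (day 90). Its sham pair lies within the range of the later libraries, with day 7 above it, and it was not called at any time (adjusted p = 0.184 at day 7). Its partner Birc5, the gene of survivin, was at 0.606 and 1.02 CPM in sham. Birc5 then stood at 14.6 and 1.55 (day 1), 13.7 and 31.3 (day 3) and 35.6 and 55.7 CPM (day 7), followed by 6.54 and 1.89 (day 21), 6.62 and 14.6 (day 60) and 10.1 and 12.6 CPM (day 90). Birc5 passed at day 3, day 7, day 60 and day 90, with log2 fold changes of 4.76, 5.77, 3.67 and 3.77.

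Top2a, the topoisomerase that untangles sister chromatids, was at 1.58 and 1.44 CPM in sham. Top2a then stood at 6.47 and 2.07 (day 1), 9.67 and 49.1 (day 3) and 66.6 and 51.6 CPM (day 7), followed by 13.9 and 1.996 (day 21), 6.81 and 8.07 (day 60) and 23.5 and 36.4 CPM (day 90). All 12 later libraries are above sham, the 2 low ones being replicate 2 of day 1 and of day 21, and the change passed at day 3 (log2 fold change 4.29, SE 0.99, adjusted p = 0.0234), day 7 (log2 fold change 5.295, SE 1.04, adjusted p = 0.00953) and day 90 (log2 fold change 4.32, SE 0.996, adjusted p = 0.0246). Mki67, the gene of the proliferation marker Ki-67, was at 10.8 and 4.72 CPM in sham. Mki67 then stood at 7.55 and 5.87 (day 1), 10.3 and 23.3 (day 3) and 34.8 and 23.5 CPM (day 7), followed by 11.6 and 4.59 (day 21), 7.73 and 3.64 (day 60) and 19.8 and 13.9 CPM (day 90). Sham replicate 1 lies above 6 of the later libraries, and only day 7 and day 90 have both libraries above sham. It was not called at any time, and its log2 fold change was 1.92 (adjusted p = 0.0756) at day 7.

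The spindle checkpoint and its target were high at day 7. Bub1, a checkpoint kinase, was at 0.364 and 0.452 CPM in sham and 26.5 and 27.5 CPM at day 7 (log2 fold change 6.02, SE 1.35, adjusted p = 0.0165). Bub1b, which holds back the anaphase-promoting complex, was at 4.12 and 2.96 CPM in sham. Bub1b then stood at 3.91 and 9.24 (day 1), 3.09 and 30.3 (day 3) and 36.3 and 31.7 CPM (day 7), followed by 8.77 and 3.42 (day 21), 4.55 and 5.06 (day 60) and 11.7 and 15.7 CPM (day 90). Sham overlaps day 1, day 3 and day 21, and Bub1b passed at day 7 alone (log2 fold change 3.27, SE 0.89, adjusted p = 0.0348). Cdc20, the activator that the checkpoint restrains, was at 0.9701 and 1.31 CPM in sham. Cdc20 then stood at 6.86 and 1.35 (day 1), 6.05 and 28.04 (day 3) and 36.6 and 54.2 CPM (day 7), followed by 8.94 and 0.949 (day 21), 5.28 and 8.33 (day 60) and 10.2 and 14.95 CPM (day 90). Day 21 replicate 2 is below sham, and Cdc20 passed at day 3 (log2 fold change 3.89, SE 1.101, adjusted p = 0.0497) and day 7 (log2 fold change 5.301, SE 1.17, adjusted p = 0.0158). Cenpe, the kinesin of the kinetochore, was at 0.909 and 0.333 CPM in sham. Cenpe then stood at 1.702 and 1.01 (day 1), 2.24 and 11.8 (day 3) and 12.5 and 19.3 CPM (day 7), followed by 2.84 and 2.37 (day 21), 5.01 and 6.82 (day 60) and 9.17 and 9.96 CPM (day 90). It was called at day 3, day 7, day 60 and day 90, with log2 fold changes of 3.57, 4.74, 3.31 and 4.004, and each later library is above sham. Cenpa, the histone of the centromere, was at 19.8 and 23.01 CPM in sham and 36.8 and 38.7 CPM at day 7 and was not called at any time.

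Among the motors, Kif2c, which takes apart microtubules at the kinetochore, was called at all 6 times. It was at 0.182 and 0.143 CPM in sham. Kif2c then stood at 3.801 and 1.16 (day 1), 3.75 and 26.7 (day 3) and 22.9 and 32.1 CPM (day 7), followed by 3.93 and 9.41 (day 21), 2.37 and 1.76 (day 60) and 5.42 and 10.3 CPM (day 90). The sham libraries hold 3 and 12 counts and every later library is above them, with log2 fold changes from 3.701 at day 60 to 7.44 at day 7. Kif11, which pushes the spindle poles apart, was at 0.667 and 0.642 CPM in sham. Kif11 then stood at 0.851 and 0 (day 1), 1.32 and 13.8 (day 3) and 23.4 and 18.6 CPM (day 7), followed by 4.100 and 2.402 (day 21), 3.33 and 2.24 (day 60) and 9.09 and 11.4 CPM (day 90). Both sham libraries are low, but day 1 replicate 2 had no count, and the change at day 7 did not pass (log2 fold change 5.004, SE 1.64, adjusted p = 0.0678). Kif20a, a motor of the central spindle, was at 0.9701 and 4.02 CPM in sham. Kif20a then stood at 2.89 and 5.94 (day 1), 1.25 and 28.2 (day 3) and 30.2 and 48.6 CPM (day 7), followed by 4.23 and 0.933 (day 21), 1.91 and 4.201 (day 60) and 7.99 and 14.9 CPM (day 90). It missed the threshold at day 7 (log2 fold change 3.96, SE 1.26, adjusted p = 0.0595), and 29.3% of its exon bases lie opposite Cdc23. Tpx2, which activates Aurora A on the spindle, was called at day 3, day 7, day 60 and day 90, with the largest change at day 7 (log2 fold change 5.59, SE 1.04, adjusted p = 0.00769). Aurka, the gene of Aurora A itself, was at 7.21 and 8.94 CPM in sham and 27.9 and 22.9 CPM at day 7 and was not called (adjusted p = 0.0756).

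**Figure D3:**
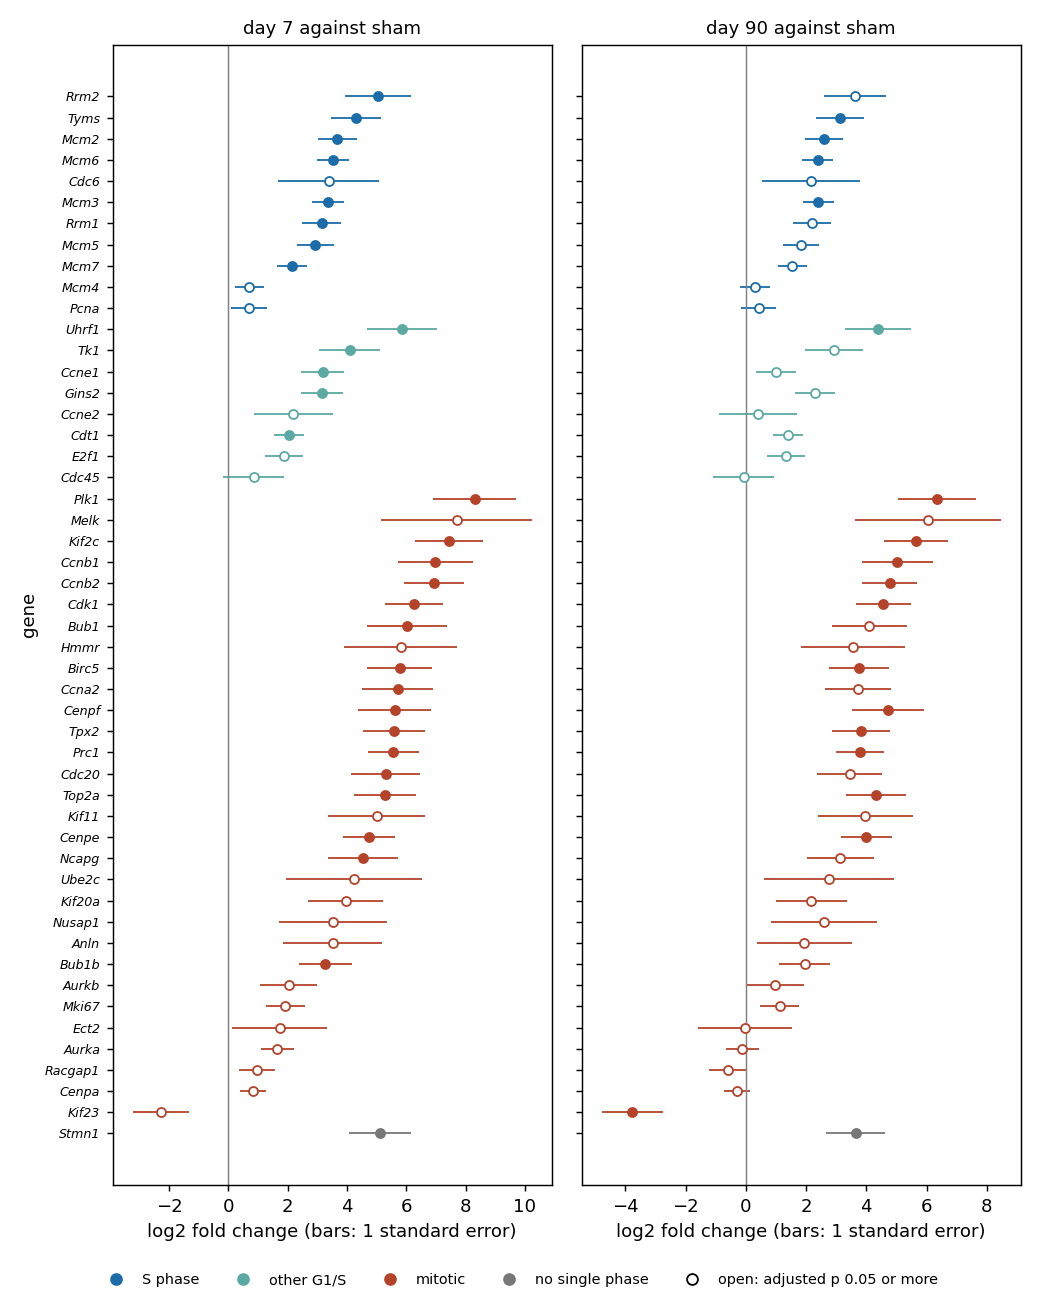
Points give the log2 fold change against sham and bars 1 standard error for the 50 genes at day 7 (left) and day 90 (right), coloured by phase group, filled where the adjusted p was under 0.05. Most genes lie to the right of 0, and Kif23 lies to the left in both panels.

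Cenpf, a kinetochore protein, and Ncapg, a subunit of the condensin complex that compacts chromosomes, also passed at day 7. Cenpf was at 0.0606 and 0.345 CPM in sham. Cenpf then stood at 1.99 and 0.263 (day 1), 2.697 and 8.56 (day 3) and 9.83 and 12.6 CPM (day 7), followed by 1.79 and 0.454 (day 21), 3.404 and 2.05 (day 60) and 5.87 and 6.17 CPM (day 90). It was called at day 3, day 7 (log2 fold change 5.62, SE 1.23, adjusted p = 0.0151) and day 90, and its sham replicate 2 is above day 1 replicate 2. Ncapg was called at day 7 alone, where its libraries were at 14.6 and 15.7 CPM against 0.303 and 0.939 in sham (log2 fold change 4.55, SE 1.17, adjusted p = 0.0275), and 13.4% of its exon bases lie opposite Lcorl. The mitotic genes Nusap1, Ube2c, Anln, Melk and Hmmr had both day 7 libraries above both sham libraries and were not called. In each of these 5 genes day 21 replicate 2 had no count, and their standard errors at day 7 ranged from 1.66 for Anln to 2.53 for Melk. Stmn1 was at 0.121 and 1.52 CPM in sham. Stmn1 then stood at 12.6 and 2.52 (day 1), 12.8 and 23.1 (day 3) and 20.7 and 40.4 CPM (day 7), followed by 3.71 and 3.77 (day 21), 9.14 and 15.4 (day 60) and 8.67 and 13.4 CPM (day 90). Every later library is above sham, and it was called at day 3, day 7, day 60 and day 90, with log2 fold changes of 4.35, 5.12, 3.802 and 3.65. In Stmn1 17.9% of the 50-base words also occur in another gene.

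Kif23 was the only one of the 50 genes called lower than sham at any time with all 14 libraries in the fit. It codes for the kinesin of centralspindlin, the complex that bundles microtubules between the separating chromosomes, and it was at 128 and 143 CPM in sham. Kif23 then stood at 3.57 and 11.6 (day 1), 2.302 and 16.1 (day 3) and 26.5 and 29.7 CPM (day 7), followed by 10.99 and 1.39 (day 21), 5.43 and 4.56 (day 60) and 9.39 and 10.5 CPM (day 90). The sham pair is highest and lies above all 12 later libraries, of which the day 7 pair is highest. Kif23 was called lower at day 1 (log2 fold change -4.15, SE 1.03, adjusted p = 0.0424), day 3 (log2 fold change -3.87, SE 1.02, adjusted p = 0.0377), day 21 (log2 fold change -4.47, SE 1.05, adjusted p = 0.0297), day 60 (log2 fold change -4.77, SE 1.06, adjusted p = 0.0229) and day 90 (log2 fold change -3.77, SE 1.01, adjusted p = 0.0424) and did not pass at day 7 (log2 fold change -2.28, SE 0.95, adjusted p = 0.135). Its partner in centralspindlin, Racgap1, was at 32.98 and 43.3 CPM in sham. Racgap1 then stood at 10.5 and 4.14 (day 1), 10.98 and 40.00 (day 3) and 75.2 and 74.9 CPM (day 7), followed by 20.5 and 12.3 (day 21), 8.19 and 13.2 (day 60) and 24.2 and 26.2 CPM (day 90). In Racgap1 the day 7 pair is highest, sham and day 3 replicate 2 come next, and both libraries lie below sham at day 1, day 21, day 60 and day 90. None of these differences of Racgap1 was called, the log2 fold change being -2.39 at day 1 (adjusted p = 0.0558) and 0.98 at day 7 (adjusted p = 0.315). Racgap1 passed in the joint test of the 7 groups.

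Ect2, the exchange factor that centralspindlin recruits for the cut between daughter cells, was at 5.64 and 4.11 CPM in sham. Ect2 then stood at 1.76 and 0 (day 1), 1.05 and 14.5 (day 3) and 17.2 and 15.1 CPM (day 7), followed by 3.05 and 4.63 (day 21), 2.104 and 0.7902 (day 60) and 3.58 and 5.97 CPM (day 90). Sham lies above both libraries of day 1 and day 60 and below both of day 7, and Ect2 was not called at any time. Prc1, which bundles the same central spindle microtubules, went the other way in sham. Prc1 was at 0.849 and 0.761 CPM in sham. Prc1 then stood at 3.23 and 2.77 (day 1), 5.39 and 26.4 (day 3) and 43.3 and 32.6 CPM (day 7), followed by 7.33 and 2.13 (day 21), 2.26 and 2.28 (day 60) and 9.89 and 12.2 CPM (day 90). Its sham pair is lowest, and it was called at day 3 (log2 fold change 4.32, SE 0.81, adjusted p = 0.00958), day 7 (log2 fold change 5.56, SE 0.86, adjusted p = 0.00363) and day 90 (log2 fold change 3.78, SE 0.79, adjusted p = 0.0165), but 11.1% of its exon bases overlap Rccd1 on the opposite strand, so part of its counts may belong to that gene. The summed level of the 30 mitotic genes was 245 ± 22.3 CPM (SD, n = 2) in sham with Kif23 and 109 ± 11.9 CPM without it. In the sham libraries, in which Kif23 was high, the erythroid marker Alas2 averaged 199.6 CPM against 0.0811 to 2.24 CPM in the later groups, and the part of such cells in the level of Kif23 was not tested.

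**Figure D4:**
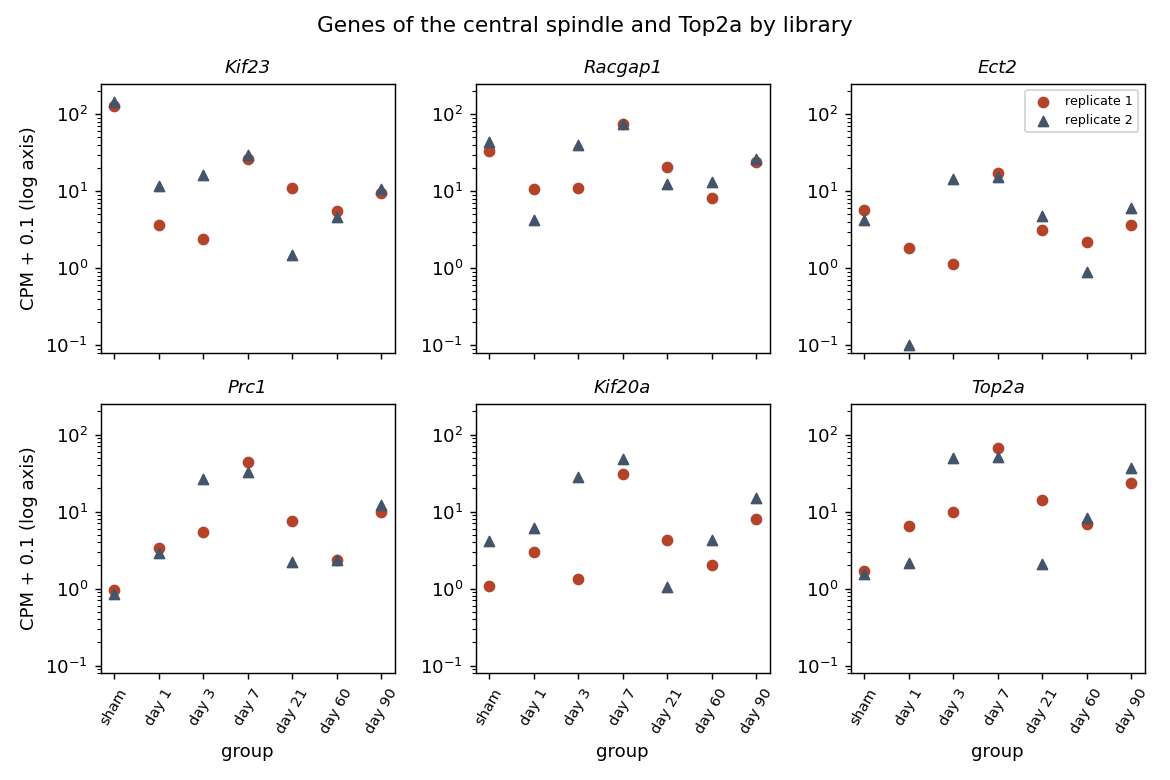
CPM + 0.1 on a log axis (y axis) of 5 genes of the central spindle and of Top2a in each library by group (x axis), with circles for replicate 1 and triangles for replicate 2. The 2 sham points of Kif23 lie above 100 CPM and above all its other points, whereas those of Prc1 and Top2a are the lowest of their panels.

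Within each library, log2 CPM of each gene (with a prior count of 2) was centred on its mean over the 14 libraries and the median taken over each group of genes. The S-phase median was -1.96 and -1.15 in the sham libraries and the mitotic median -2.51 and -2.13, so both groups were below their own average there. At day 7 the S-phase median was 1.71 and 1.47 and the mitotic median 2.59 and 2.66. From sham to day 7 the mitotic genes thus spanned a wider range than the S-phase genes in both replicate numbers. The S-phase minus mitotic difference was 0.54 and 0.97 in sham, -0.58 and -0.76 on day 3, -0.88 and -1.19 on day 7, -0.10 and -0.05 on day 60 and -0.37 and -0.49 on day 90. At day 1 it was -0.01 and 1.71 and at day 21 it was 0.00 and 1.67, the 2 libraries of each of these groups being further apart than those of any other group. In replicate 2 of day 1 and of day 21 the S-phase median (-0.27 and -0.24) was far above the mitotic median (-1.98 and -1.91). The mean difference of sham, 0.76, was 0.44 with a mean over genes in place of the median and 0.23 without genes that overlap or resemble another, and that of day 60, -0.07, was 0.11 with the mean. The difference is a description and was given no test, since the genes were chosen with results of these data known.

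**Figure D5:**
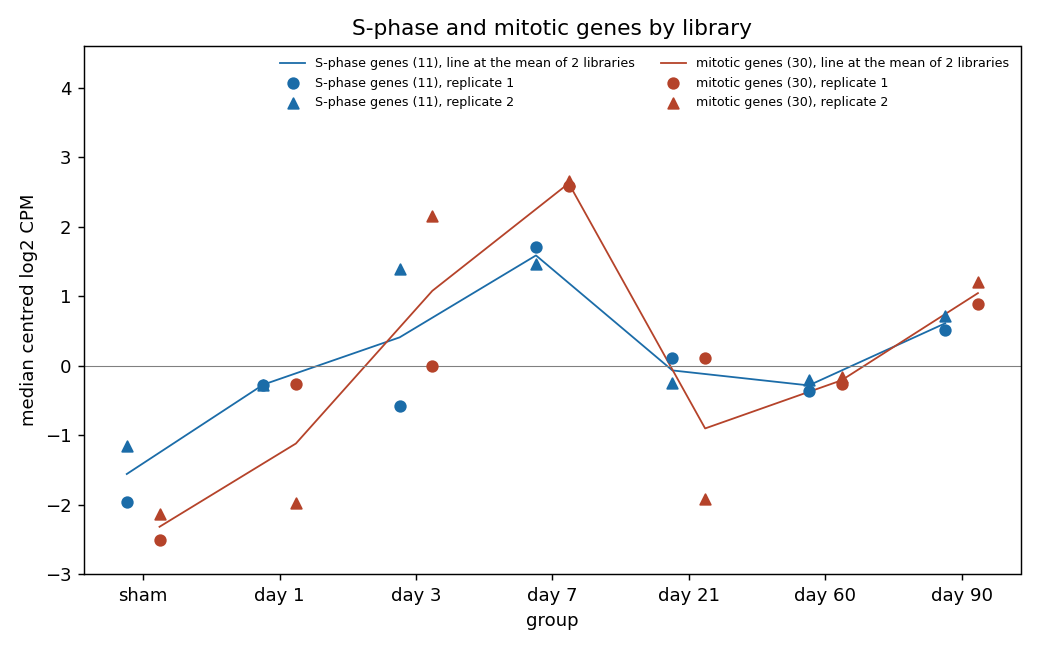
Median centred log2 CPM (y axis) of 11 S-phase genes (blue) and 30 mitotic genes (red) in each library by group (x axis), with circles for replicate 1, triangles for replicate 2 and lines through the mean of the 2 libraries. Mitotic points lie below S-phase points in sham and above them at day 7, and the mitotic points of day 1, day 3 and day 21 lie far apart.

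By group means, the order of the groups was much alike in the 2 sets of genes. The group with the highest mean was day 7 in 10 of 11 S-phase genes, 8 of 8 other G1/S genes and 29 of 30 mitotic genes, the exceptions being Pcna (day 60) and Kif23 (sham). Within replicate 1 day 7 was highest in 10, 7 and 28 of these genes. Within replicate 2 it was highest in 6, 5 and 29, and day 3 was highest in 4 of the S-phase genes and 0 of the mitotic genes. Sham had the lowest mean in 9 of the 11, 6 of the 8 and 21 of the 30 genes. The summed level of the 11 S-phase genes was 113 ± 17.8 CPM in sham, then 213 ± 22.7 (day 1), 392 ± 279 (day 3), 728 ± 92.8 (day 7), 233 ± 29.4 (day 21), 219 ± 34.6 (day 60) and 375 ± 44.8 CPM (day 90), each with its SD over 2 libraries. That of the 29 mitotic genes other than Kif23 was 109 ± 11.9, 132 ± 81.9, 424 ± 323, 958 ± 24.6, 149.5 ± 83.4, 159.8 ± 19.2 and 329 ± 42.0 CPM in the same order. In both sums each day 7 library lies above all 12 others, both day 90 libraries lie above both of day 60, and the 2 libraries of day 3 lie on either side of those of day 90.

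Tests between neighbouring times called none of the 50 genes in edgeR. The background of all genes called was 0% for day 3 against day 1, 0.00721% for day 7 against day 3, 0% for day 21 against day 7, 0.0216% for day 60 against day 21 and 0% for day 90 against day 60. At an unadjusted p under 0.05 there were 9, 2, 38, 0 and 5 of the 50 genes in those comparisons, beside 2.51%, 4.14%, 9.67%, 13% and 3.19% of all genes. The counts for day 7 against day 3 and day 60 against day 21 were at or below that background. DESeq2 called 0, 0, 20, 0 and 0 of them, beside 0.0361%, 0.968%, 2.91%, 2.72% and 0.196% of all genes, and limma-voom called 0 in each. From day 1 to day 3 both libraries rose above both earlier ones in 19 genes (background 9.08%; 5.65% fell below), and from day 3 to day 7 in 38 genes (background 14.3%; 14.5% fell below). From day 7 to day 21 both libraries of day 21 were below both of day 7 in 50 of 50 genes, beside 19.1% of all genes tested, while 17.7% of all genes moved above. The median log2 fold change of that step was -1.75 over the S-phase genes and -2.98 over the mitotic genes. Ccnb2 had the lowest adjusted p of that step (log2 fold change -3.81, adjusted p = 0.222). Without day 21 replicate 1 edgeR called 7 of the 50 genes for day 21 against day 7 and 5 for day 60 against day 21, and the shares of all genes called rose to 1.84% and 2.56%. From day 21 to day 60 both libraries lay above both in 14 genes and below in 6 (background 23.9% and 22%). From day 60 to day 90 they lay above in 39 genes and below in 2 (background 28.8% and 22.6%).

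The 2 libraries of a group differed across many of the 50 genes at once at 3 times. Replicate 1 was the higher library in 41 genes at day 1 and 42 at day 21 and in 2 at day 3, with median log2 differences of 1.42, 1.34 and -1.85, while that of all genes stayed within 0.03 of 0. At day 7, day 60 and day 90 and in sham the median difference lay between -0.30 and 0.12. Within replicate 1, with its lower depth, the mitotic median against sham was 2.04 (day 1), 2.55 (day 3), 5.17 (day 7), 2.72 (day 21), 2.19 (day 60) and 3.44 (day 90). Within replicate 2 it was 0.41, 4.39, 5.005, -0.02, 2.01 and 3.54. The mitotic median thus lay above 0 in both replicate numbers at every time but day 21, where 14 of 30 genes were above sham in replicate 2. For the S-phase genes the same medians were 1.68, 1.22, 3.65, 1.82, 1.41 and 2.46 in replicate 1 and 0.85, 2.66, 3.02, 0.65, 1.37 and 2.14 in replicate 2.

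Cell type markers also differed between those libraries (pairs give replicate 1, then 2). Microglia markers summed to 5747 and 2807 CPM at day 1, 5098 and 16973.5 CPM at day 3 and 7537 and 29285 CPM at day 21. For neutrophil markers these were 1284 and 7472, 3855 and 924, and 7836 and 930.4 CPM. For monocyte markers they were 1866 and 11211, 2996 and 5337, and 5116 and 1220.5 CPM. Dendritic cell markers (6 genes) summed to 187 and 111 CPM at day 3 and 2028 and 33.2 CPM at day 21. Day 21 replicate 2, whose mitotic median against sham was -0.02, had the highest microglia sum of the 14 libraries. The part of these markers in the differences was not tested. Neutrophil precursor markers (6 genes, among them Mpo and Elane, granule enzymes that precursors in the bone marrow make) summed to 573 to 647 CPM at day 90, 9.72 to 190 CPM at day 21, 27.2 to 38.2 CPM at day 60, and 3.85 to 8.00 CPM at day 7. Mpo averaged 391 CPM at day 90 and 1.78 CPM at day 7. In sham the precursor markers summed to 9.45 to 13.4 CPM, above both day 7 libraries. B cell markers (8 genes) summed to 274 to 293 CPM at day 90, 126 to 147 CPM in sham and 12.7 to 13.6 CPM at day 7, and T and NK cell markers (11 genes) to 313 to 399.6, 44.1 to 66.4 and 60.6 to 87.9 CPM. Il7r alone averaged 181 CPM at day 90, and it was at 34.2 CPM at day 1, where Cd3e was at 0.0734 CPM. Gzma and Ncr1 were highest in sham (21.9 and 2.63 CPM against 0.613 and 1.53 CPM at day 90), and Klrb1c was highest at day 21. The other T and NK cell markers were highest at day 90. The rise of 17 of the 50 genes at day 90 thus stands beside the highest sums of the neutrophil precursor, B cell and T and NK cell lists, whose part in it was not tested.

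Further genes of the cycle, chosen for their roles, were read from the same tests. Of 42 other replication genes 14 were called higher and 0 lower at day 7, 4 higher at day 3 and at day 90, and 2 higher at each of day 1, day 21 and day 60, with 0 lower throughout. That is 33.3% at day 7 against 7% of all genes called higher, and 9.52% at day 3 and at day 90 against 5.2% and 5.12%. At day 1, day 21 and day 60 it is 4.76% against 3.18%, 5% and 4.96%, near the background. Lig1, the ligase that joins the lagging strand, was at 28.2 ± 14.9 CPM (SD, n = 2) at day 3 against 1.29 ± 0.542 CPM (SD, n = 2) in sham (log2 fold change 4.42, SE 0.75, adjusted p = 0.00615) and was also higher at day 1, day 21, day 60 and day 90. Its day 7 result is not given here, since at most 4 called genes of a list were named per direction and time. Of 52 other mitotic genes 20 were called higher and 2 lower at day 7, 10 and 0 at day 3, 8 and 2 at day 90, 4 and 0 at day 60, 2 and 1 at day 21, and 2 and 0 at day 1. The share higher was 38.5% at day 7, 19.2% at day 3 and 15.4% at day 90, against 7%, 5.2% and 5.12% of all genes, and 3.85% at day 1 and at day 21, near the 3.18% and 5% of all genes. Cdca3, a trigger of mitotic entry, rose at all 6 times and was at 39.9 ± 5.74 CPM (SD, n = 2) at day 7 against 0.342 ± 0.0545 CPM (SD, n = 2) in sham (log2 fold change 6.83, SE 1.04, adjusted p = 0.00355). Ttk, a checkpoint kinase, had no count in sham and was at 8.74 ± 2.56 CPM (SD, n = 2) at day 7. The genes that fell at day 7 were Cks2, a subunit of Cdk complexes, at 3.62 ± 1.01 CPM (SD, n = 2) at day 7 against 33.6 ± 11.5 CPM (SD, n = 2) in sham (log2 fold change -3.21, SE 0.72, adjusted p = 0.0165), and Pttg1, the gene of securin, at 23.7 ± 12.7 CPM (SD, n = 2) against 134 ± 98.97 CPM (SD, n = 2) (log2 fold change -2.49, SE 0.72, adjusted p = 0.0419). Both were also lower at day 90, and the 2 sham libraries of Pttg1 lay far apart.

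Of 11 genes that drive G1, 4 were called higher at day 7, 3 at each of day 1, day 3 and day 90 and 2 at each of day 21 and day 60, and 1 was called lower, E2f2 at day 60. The share higher ranged from 18.2% to 36.4%, against 3.18% to 7% of all genes, in a list of 11. Of all genes 2.89% were called lower at day 60. Ccnd1, the gene of cyclin D1, was at 4.91 and 1.74 CPM in sham. Ccnd1 then stood at 24.2 and 12.1 (day 1), 14.1 and 22.3 (day 3) and 66.5 and 26.1 CPM (day 7), followed by 64.9 and 16.04 (day 21), 18.7 and 22.1 (day 60) and 48.4 and 38.4 CPM (day 90). All later libraries are above sham, and it passed at day 7 (log2 fold change 3.82, SE 0.795, adjusted p = 0.0124), day 21 (log2 fold change 3.62, SE 0.79, adjusted p = 0.0226) and day 90 (log2 fold change 3.73, SE 0.79, adjusted p = 0.0174). Ccnd3, the gene of cyclin D3, was at 467 and 475 CPM in sham. Ccnd3 then stood at 75.9 and 201 (day 1), 83.5 and 78.8 (day 3) and 79.2 and 62.6 CPM (day 7), followed by 379.9 and 32.6 (day 21), 85.5 and 77.1 (day 60) and 106 and 93.6 CPM (day 90). Its sham pair is highest, day 21 replicate 1 comes next, and the difference at day 7 did not pass (adjusted p = 0.0537). Ccnd2 was at 31.9 ± 0.752 CPM (SD, n = 2) in sham and 11.2 ± 1.98 CPM (SD, n = 2) at day 7 and was not called at any time. Cdk6, a partner of the D cyclins, rose at day 1, day 3, day 7, day 60 and day 90, from 2.24 ± 1.29 CPM (SD, n = 2) in sham to 20.1 ± 2.15 CPM (SD, n = 2) at day 60 (log2 fold change 3.18, SE 0.54, adjusted p = 0.00605). Myc rose at each time but day 7, where it was at 25.2 ± 5.08 CPM (SD, n = 2) against 9.21 ± 0.08095 CPM (SD, n = 2) in sham (log2 fold change 1.45, SE 0.45, adjusted p = 0.0529).

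Of 24 inhibitors of the cycle and genes of arrest, 2 were called higher and 7 lower at day 7, 2 and 6 at day 90, 3 and 3 at day 60, 0 and 2 at day 21, 1 and 3 at day 3, and 1 and 2 at day 1. The share higher was 4.17% (day 1), 4.17% (day 3), 8.33% (day 7), 0% (day 21), 12.5% (day 60) and 8.33% (day 90). Of all genes 3.18%, 5.2%, 7%, 5%, 4.96% and 5.12% were called higher in the same order. Day 1, day 3 and day 7 were thus near the background. All genes called lower were 1.37%, 3.07%, 5.63%, 1.44%, 2.89% and 2.73% in that order. Cdkn1b, the gene of the Cdk inhibitor p27, was at 65.8 ± 3.01 CPM (SD, n = 2) in sham and 4.26 ± 0.473 CPM (SD, n = 2) at day 7 (log2 fold change -3.95, SE 0.78, adjusted p = 0.009504) and was also lower at day 3 and day 21. Its day 90 result is not given here, for the same reason as that of Lig1 at day 7. Btg1, an antiproliferative gene, was at 2958 ± 1029.9 CPM (SD, n = 2) in sham and 241 ± 69.4 CPM (SD, n = 2) at day 7 (log2 fold change -3.62, SE 0.77, adjusted p = 0.0133). Cdkn1c, the gene of the inhibitor p57, rose at day 60 and day 90, where it was at 44.96 ± 13.8 CPM (SD, n = 2) against 3.06 ± 0.559 CPM (SD, n = 2) in sham (log2 fold change 3.87, SE 0.67, adjusted p = 0.00744). Cdkn1a, the gene of p21, was at 156 and 135 CPM in sham. Cdkn1a then stood at 652 and 559 (day 1), 1101 and 259 (day 3) and 197 and 127 CPM (day 7), followed by 238 and 116 (day 21), 331 and 256 (day 60) and 83.3 and 59.99 CPM (day 90). Both day 1 libraries and both day 3 libraries are above sham, both of day 90 are below it, and none of these differences was called (adjusted p = 0.0514 at day 3). Gadd45b, a stress-induced gene, was called at day 60 alone, at 835 ± 36.96 CPM (SD, n = 2) against 113 ± 3.54 CPM (SD, n = 2) in sham (log2 fold change 2.89, SE 0.55, adjusted p = 0.0113).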

How the data were processed

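The authors deposited raw read counts per gene for the 14 libraries; reads were aligned with Bowtie2 2.3.4.2 and counted with HTSeq 0.6.1 on mm9, per the submitters' processing notes, and whether counting used strand is not given in the sources used here. The counts of 14084 genes were equal in the table and in the library files, except that 23 symbols appear as dates in the latter. Genes passing edgeR's filterByExpr by group (13861, 223 removed) were fitted in a quasi-likelihood model (edgeR 4.0.16, limma 3.58.1, R 4.3.3) with TMM factors and 1 mean per group, leaving 7 residual degrees of freedom (common biological coefficient of variation 0.639), and p-values were adjusted by the Benjamini-Hochberg method over all genes tested. DESeq2 1.42.0, limma-voom, other scalings and filters, thinned depth, a replicate block, a minimum fold of 1.5 and leaving out each library were alternatives. Centred log2 CPM used a prior count of 2. An interval allowed by 0 counts is 3 counts over the library total, without TMM factors, and covers counting error only. On simulated counts for day 7 against sham (13625 genes), the test called 70% of 50 genes changed by 4 on the log2 scale, 66% at -4, 2% at 2 and 4% at -2. Tables and figures used Python 3.11.15, pandas 2.3.3 and matplotlib 3.10.9.

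The genes, the other lists and the marker lists were chosen with earlier results of these data known. Values in every library are given for a panel of the 50 genes, for any gene called lower than sham, and for the 3 genes of each phase group with the largest called change at each time; of the other lists up to 4 called genes per direction and time could be named, with Cdkn1a, Ccnd1, Ccnd2, Ccnd3, Myc and Gadd45b at every time. Promoter sequences come from RefSeq (GRCm38.p6), a later build than that of the counts, so no other coordinates are given.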

Additional observations from a re-analysis of the deposited data

How the results depend on the processing

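None of the 92 gene results called against sham changed direction under any alternative run. Of these, 84 lost their call without sham replicate 1 and 74 without sham replicate 2, 20 under limma-voom, 16 with a minimum fold of 1.5, 6 with replicate 2 thinned to the depth of replicate 1, and 0 under DESeq2 or upper-quartile scaling; the cause was not tested. DESeq2 called 14 of the 50 genes on day 1 (edgeR 6), 14 on day 21 (4), 18 on day 60 (11), 29 on day 90 (18), 38 jointly (19) and 20 for day 21 against day 7 (0). It also called more of all genes, 14.7%, 18%, 19.9%, 19.6%, 25.1% and 2.91% in the same order. Limma-voom called 2 at day 1, of which 0 were higher, and 5 at day 60, near the 4.34% and 8.95% of all genes. The minimum fold left 2 at day 1, near the 3.14% of all genes, and 7 at day 60, beside 5.09%. Upper-quartile scaling gave 8 at day 21, beside 7.06% of all genes. Without the day 1, day 3 and day 21 libraries, an alternative chosen after seeing the data, 31 genes were called at day 60 and 38 at day 90, beside 24.4% and 24% of all genes. Leaving out 1 library at a time gave 0 to 10 (day 1), 0 to 29 (day 3), 8 to 38 (day 7), 0 to 10 (day 21), 0 to 14 (day 60) and 0 to 28 (day 90) calls against sham, 1 to 33 jointly, 0 to 7 for day 21 against day 7 and 0 to 5 for day 60 against day 21, the lone library of a group being assumed to vary like the others. Upper-quartile scaling moved the median log2 fold change of all genes by 0.125 (day 3), 0.147 (day 7), 0.215 (day 21), 0.102 (day 60) and 0.203 (day 90).

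With the replicate block, edgeR called 9, 27, 35, 5, 14 and 22 of the 50 genes at day 1, 3, 7, 21, 60 and 90, 19 jointly and 0 between neighbouring times, and none of the 92 called results was lost. The block also raised the share of all genes called against sham to 8.62%, 14.4%, 20%, 11.4%, 14.1% and 14.5%, so the 5 genes of day 21 are below their background. Deviations of same-numbered libraries correlated between 0.071 (day 1 with day 21) and 0.677 (day 60 with day 90) over genes, above 0.1 in 20 of 21 pairs of groups. Since 1 pair fell short and no label ties the numbers, they were not taken as pairs; same-numbered libraries share depth, and what else they share was not tested.

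The S-phase minus mitotic difference of sham (0.76) was 0.44 with means over genes, 0.23 without genes that overlap or resemble another and 0.54 to 1.11 leaving out 1 library. That of day 3 (-0.67) was -0.52 with means and -0.80 to -0.54 leaving out 1 library, that of day 7 (-1.04) was -1.27 to -0.85, and that of day 90 (-0.43) was -0.33 without overlapping genes and -0.53 to -0.28. At day 60 (-0.07) it was -0.11 with a prior count of 0.5, 0.11 with means, -0.12 without overlapping genes and -0.19 to 0.17 leaving out 1 library, so its sign is not settled.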
